A study of Rattus norvegicus with 15 samples.

Results

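The transcripts of the mitochondrial genome were 69 of the 85322 transcript rows measured in cultured rat brain microvascular endothelial cells (BMECs). The rule that defines them uses position only, as all rows on the chromosome MT of the build Rnor_6.0, and no expression value. The part itself was chosen with earlier results of these data known. An annotation was given for 37 rows. These were 13 protein-coding genes, 2 rows of 958 and 1571 bases, which is the size of ribosomal RNAs, and 22 rows of 60 to 75 bases, which is the size of transfer RNAs. The rows of the last 2 classes carry clone names (AY172581 with a number), so they are called rRNA-size and tRNA-size here, and no amino acid is given for them. The other 32 rows were built by the assembler and carry no gene name, 30 of them on the minus strand, and each had at least 2 exons.

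The cells were primary BMECs from the cerebral microvessels of Sprague-Dawley rats (spelled Spraque-Dawley in the labels), littermates of both sexes aged 2 to 3 weeks. A total of 15 libraries were made from messenger RNA selected by its poly-A tail, 3 in each of 5 groups. The control group was not exposed and is labelled as 12 h in culture. The other groups were exposed to x-rays from a linear accelerator (5 Gy, or the higher dose of 20 Gy) and were collected 12 h or 24 h later. Because unexposed cells kept for 24 h were not part of the samples analysed, effects of exposure and of longer culture cannot be told apart at 24 h. The study's methods call the 3 libraries of a group biological replicates without saying whether they came from separate animals or cultures, and the p-values measure only the spread between these libraries.

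The mitochondrial genome of mammals is a small circle that is copied into RNA along almost its whole length from both strands. The long precursors are cut mostly at the tRNAs that lie between the other genes, which releases ribosomal RNAs, messenger RNAs and tRNAs. The ribosomal RNAs and most of the messenger RNAs receive short poly-A tails. The 13 proteins are subunits of complexes I, III, IV and V of oxidative phosphorylation, and the nuclear genome encodes all other subunits, the polymerase Polrmt and the factors that copy, cut, protect and translate these RNAs. Selection by poly-A tail keeps ribosomal RNAs and tRNAs only in part, so the values of the rRNA-size and tRNA-size rows describe the copies that were selected. The values of a protein-coding row likewise describe only selected copies. A tRNA-size row is shorter than a usual library fragment, so mature tRNA and uncut precursor cannot be told apart in it. Fewer cells of a type and less RNA per cell also cannot be told apart in these bulk libraries.

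Before the results, 3 features of the libraries have to be given. The depth, read from the steps between low FPKM values, was 5.44 to 7.49 gigabases of aligned sequence per library. Of 12 endothelial markers, 11 were in the table and 2 reached a mean FPKM of 1 (Flt1 and Egfl7), with Tie1 and Emcn at 0 in every library and Cldn5 and Cdh5 at most 0.275 FPKM, and their summed FPKM lay between 4.09 and 9.01 in all libraries. The 6 fibroblast markers, all in the table and all above a mean FPKM of 1, summed to 1798 to 1987 FPKM in the control group, 1273 to 1547 in the 12 h groups and 272 to 326 in the 24 h groups. In the control and 12 h groups most of this sum was Col1a1, Col1a2 and Col3a1, and at 24 h each of these 3 had 18.6 to 48.2 FPKM. Dcn fell from 174 to 220 FPKM in the control group to 75.9 to 96.5 FPKM at 24 h, and Lum from 170 to 261 FPKM to 36.9 to 91.1 FPKM. Pdgfra had 51.7 to 52.6 FPKM in the control group and 43.8 to 66.8 FPKM at 24 h. Of 6 pericyte markers, 3 were measured (Pdgfrb, Cspg4 and Anpep) and Rgs5, Kcnj8 and Abcc9 were at or near 0, and they summed to 152 to 160, 103 to 126 and 49.9 to 87.7 FPKM in the same order. The defining endothelial markers were thus at or near 0, and the fibroblast and pericyte sums moved with time in the same samples as the mitochondrial rows. Of 5 astrocyte markers, Aldh1l1 was higher in the exposed libraries (16.9 to 30.3 FPKM, against 8.04 to 10.7 in the control group). Slc1a2 was lower (0.410 to 1.65 against 2.10 to 2.62 FPKM), Slc1a3 overlapped (0.683 to 2.46 against 1.57 to 2.09 FPKM), and Gfap and Aqp4 were at or near 0. The neuron markers summed to at most 12.9, the oligodendrocyte markers to at most 1.22 and the microglia markers to at most 0.301 FPKM. Their part in the results was not tested. Finally, 4 libraries stood apart in single mitochondrial rows, namely replicate 2 of the control group (Mt-cyb low, Mt-nd4 high), replicate 1 at 12 h after 5 Gy (Mt-co3 high), and replicates 2 and 3 at 24 h after 20 Gy (Mt-nd2 listed at 0). The last of these also had the lowest mitochondrial share.

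At 24 h, the mitochondrial rows took a smaller share of the library than at 12 h. The share is the summed FPKM (fragments per kilobase of transcript, scaled to the number of mapped fragments) of the 69 rows as a percentage of the summed FPKM of all rows. It was 4.56%, 3.68% and 4.66% in the 3 control libraries, 4.80%, 4.49% and 4.28% at 12 h after 5 Gy, and 4.52%, 4.15% and 4.20% at 12 h after 20 Gy. At 24 h it was 3.66%, 3.59% and 3.43% after 5 Gy, and 3.91%, 3.76% and 2.58% after 20 Gy. All 6 libraries of 24 h lay below all 6 of 12 h, and the mean was lower by 0.918 percentage points (two-sided exact permutation test, p = 0.00216, the smallest that 6 libraries against 6 can give, adjusted p = 0.00649 over 3 pooled comparisons).

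Against the control group, the share in the 6 libraries of 24 h was lower by 0.811 percentage points, with overlapping libraries (exact permutation test, p = 0.0714). The only control library in the overlap was replicate 2, at 3.68%, which also had the low Mt-cyb. A link between these was not tested. The 12 h groups differed from the control group by 0.107 percentage points (exact permutation test, p = 0.643). Counted in aligned bases, in which a long row weighs more, the share was 2.41% to 2.93% in the control group, 2.43% to 2.76% in the 12 h groups and 1.52% to 2.26% in the 24 h groups, and its exact permutation p for 24 h against control was 0.0238. Exact permutation tests of 3 libraries against 3 cannot go below p = 0.1, so none of these 8 comparisons could pass. This smallest exact permutation p was reached for 5 Gy at 24 h against control and for 24 h against 12 h at each dose. For 20 Gy at 24 h against control the difference was -0.883 percentage points with overlap (exact permutation test, p = 0.3), and the 2 doses overlapped at 24 h (exact permutation test, p = 1).

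**Figure D1:**
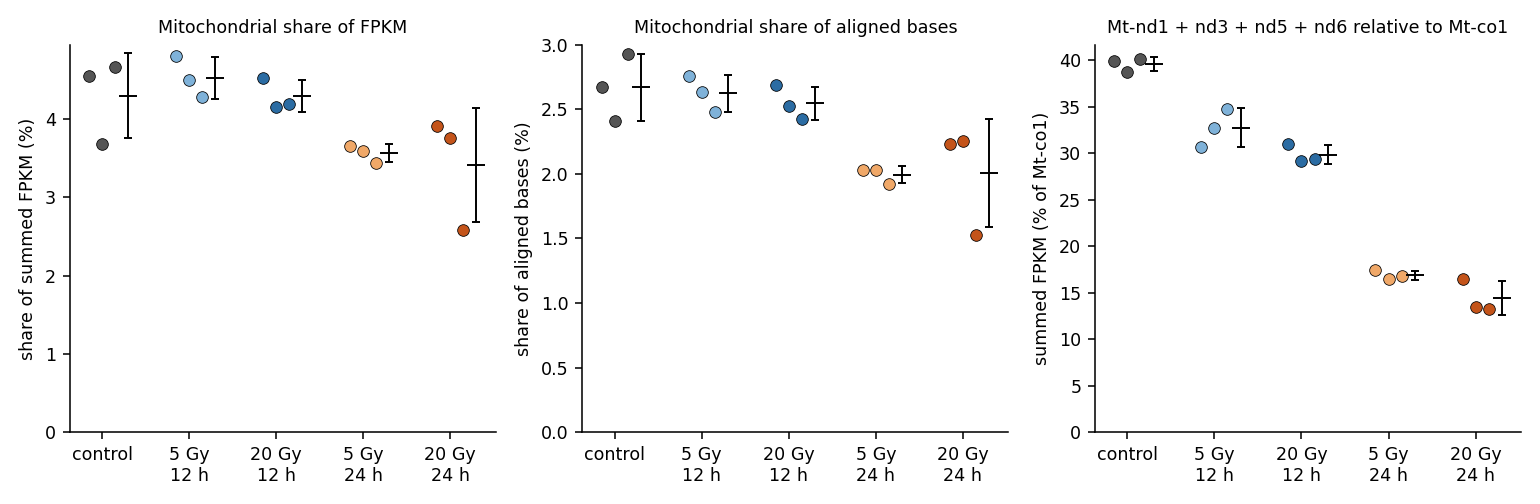
Mitochondrial share of the summed FPKM (left, in percent), mitochondrial share of aligned bases (middle, in percent), and summed FPKM of Mt-nd1, Mt-nd3, Mt-nd5 and Mt-nd6 as a percentage of Mt-co1 (right), by group. Points are libraries and bars are the mean ± SD of 3. Both shares are lower in the 24 h groups than in the 12 h groups, and the ratio to Mt-co1 is 38.8% to 40.1% in control libraries and 13.2% to 17.4% at 24 h.

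For single rows, log2(FPKM + 1) was tested with limma over the 41932 transcripts that averaged 0.5 FPKM or more, a limit which 56 of the 69 mitochondrial rows passed. The 13 that did not were 2 protein-coding, 6 tRNA-size and 5 assembled rows. A call needed both an adjusted p (Benjamini-Hochberg) below 0.05 and a change of 1.5-fold or more on this scale. Of the 56 rows, 2 were called higher than control and 14 lower at 24 h after 5 Gy, against 12.1% and 12.0% of all transcripts tested. With 20 Gy at 24 h, the calls were 2 higher and 21 lower, against 10.6% and 13.6%. At 12 h, 1 row was called higher and 7 lower after 5 Gy (2.08% and 2.24% of all transcripts), and 1 higher and 1 lower after 20 Gy (1.92% and 1.77%). From 12 h to 24 h, 2 rows were called higher and 15 lower after 5 Gy (9.66% and 10.2%), and 2 higher and 19 lower after 20 Gy (8.67% and 11.7%). The median log2 change of the mitochondrial rows against control at 24 h was -0.78 after 5 Gy and -0.79 after 20 Gy, and over all transcripts tested it was 0 and -0.05. The 4 comparisons with control share the control libraries.

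**Figure D2:**
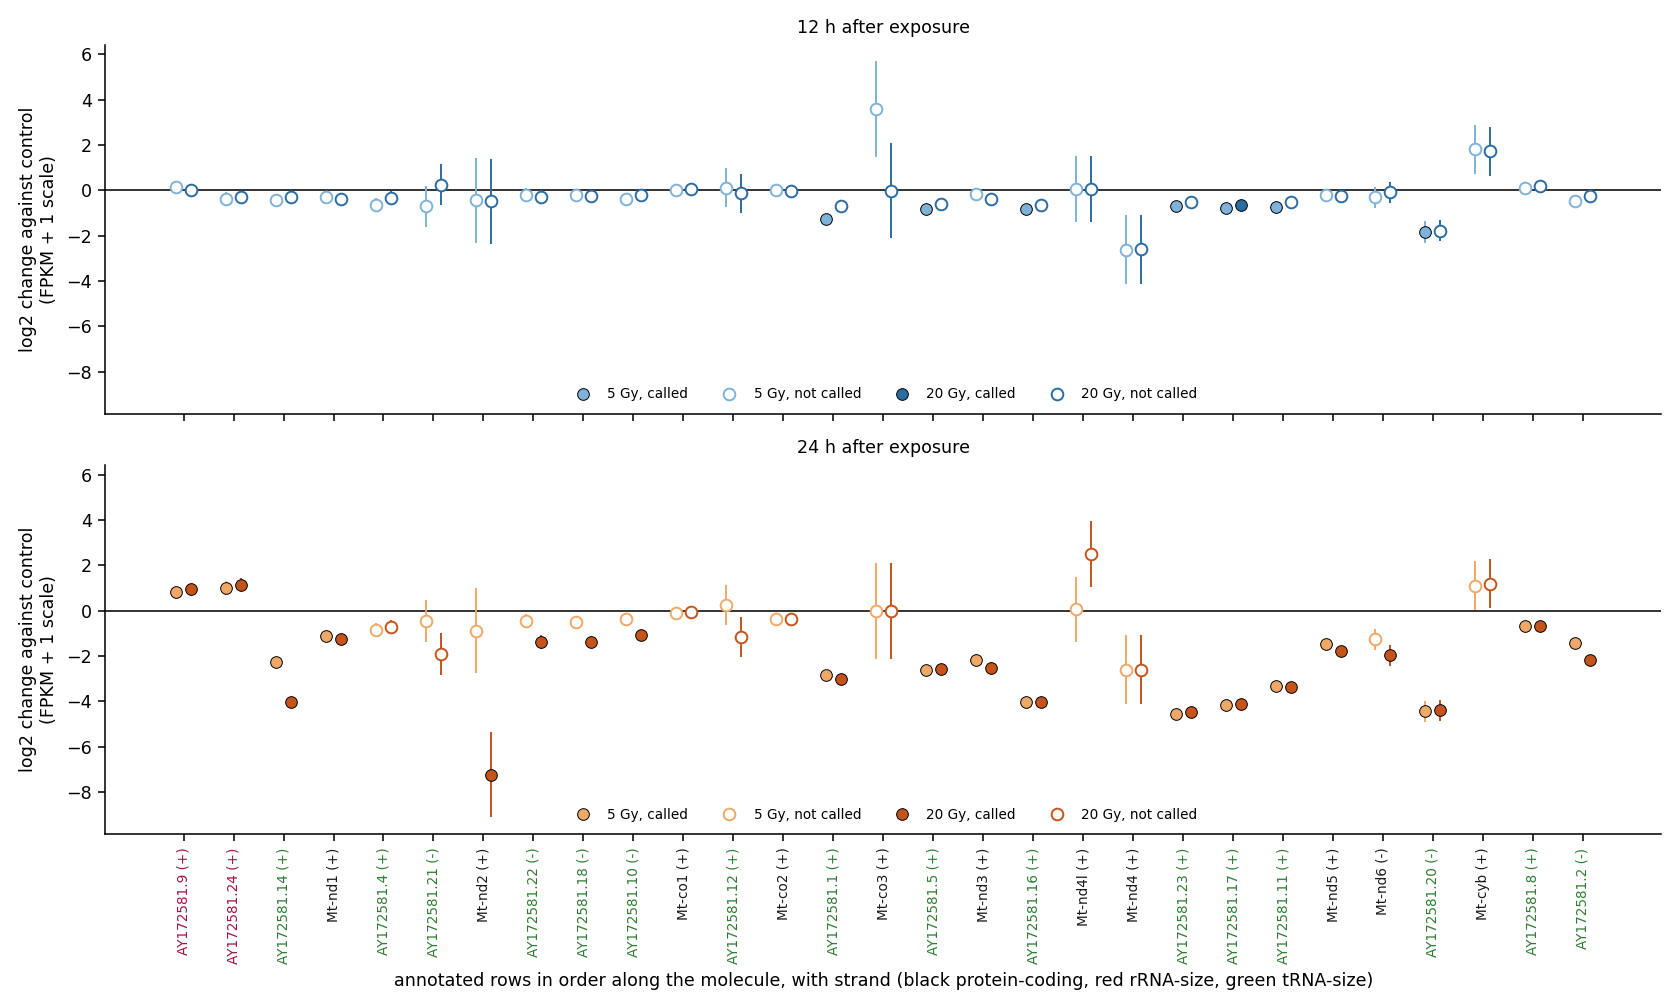
Change in log2(FPKM + 1) against control for the 29 annotated rows that were tested, in their order along the molecule, at 12 h (upper) and 24 h (lower) after 5 Gy and 20 Gy. Points are estimates, bars are ± SE, filled points passed the threshold, and signs in brackets give the strand. The 2 rRNA-size rows at the left lie above 0 at 24 h, most tRNA-size rows lie far below it, and Mt-co1 and Mt-co2 stay near it.

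The 2 rRNA-size rows were the only mitochondrial rows called higher at 24 h. They lie at the start of the plus strand, the smaller (AY172581.9) at MT:68-1025 and the larger (AY172581.24) at MT:1094-2664, and mitochondrial ribosomal RNAs form the core of the ribosome that translates the 13 proteins. The smaller row had 171, 114 and 140 FPKM in the control libraries, and 136 to 162 FPKM in the 6 libraries of 12 h. The values of 24 h were 216, 306 and 230 FPKM after 5 Gy and 322, 340 and 188 FPKM after 20 Gy. All 6 libraries of 24 h were above all others. The increase against control was 0.82 ± 0.21 on the log2 scale (SE, adjusted p = 0.0131) after 5 Gy and 0.97 ± 0.21 (adjusted p = 0.00523) after 20 Gy.

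The larger rRNA-size row behaved in the same direction. It had 118, 77.8 and 108 FPKM in the control group and 69.2 to 101 FPKM at 12 h. The 24 h libraries had 181, 243 and 184 FPKM after 5 Gy and 271, 323 and 126 FPKM after 20 Gy, and these 6 libraries again lay above all others. The increase against control was 1.00 ± 0.30 (adjusted p = 0.0257) and 1.15 ± 0.30 (adjusted p = 0.0127). The 2 rows together made 1.08% to 1.43% of mitochondrial FPKM in the control and 12 h libraries and 2.64% to 4.04% at 24 h. Neither row passed the threshold at 12 h, and the 2 doses did not differ at 24 h by the test, with differences of 0.14 ± 0.21 and 0.15 ± 0.30. The calls of these rows rested on few libraries, and with only the groups compared in the fit both were lost after 20 Gy (adjusted p = 0.069 and 0.105). Without replicate 2 of the control group or replicate 2 at 24 h after 5 Gy, neither row was called after 5 Gy, and the larger row was also lost without replicate 3 of the control group. After 20 Gy, the larger row was lost without replicate 2 of the control group and without replicate 1 or 2 of the exposed group (adjusted p = 0.0509 to 0.0547).

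Complex I passes electrons from NADH to ubiquinone. Of its 7 mitochondrial subunits, Mt-nd1, Mt-nd3 and Mt-nd5 fell after both doses at 24 h, Mt-nd6 passed after 20 Gy only, the call of Mt-nd2 after 20 Gy rests on zeros, and Mt-nd4 and Mt-nd4l could not be followed. Mt-nd1 had 1529, 1471 and 1747 FPKM in the control libraries, 1250, 1289 and 1280 at 12 h after 5 Gy, and 1248, 1222 and 1138 at 12 h after 20 Gy. It was down to 776, 688 and 715 FPKM after 5 Gy and 787, 698 and 540 FPKM after 20 Gy at 24 h. The control, 12 h and 24 h libraries do not overlap, with control highest. The change against control at 24 h was -1.12 ± 0.11 after 5 Gy (adjusted p = 1.85e-05) and -1.24 ± 0.11 after 20 Gy (adjusted p = 8.78e-06), while at 12 h it was -0.31 ± 0.11 and -0.39 ± 0.11 and did not pass.

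Of these 3 rows, Mt-nd3 had the largest change. It had 405, 331 and 449 FPKM in the control group, 341, 363 and 345 at 12 h after 5 Gy, and 368, 289 and 261 at 12 h after 20 Gy. At 24 h only 80.1, 98.8 and 83.5 FPKM were left after 5 Gy and 87.4, 85.7 and 40.5 FPKM after 20 Gy, so that every library of 24 h was far below the others. The change at 24 h was -2.16 ± 0.25 (adjusted p = 5.56e-05) and -2.52 ± 0.25 (adjusted p = 1.7e-05).

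Mt-nd5 had 607 to 722 FPKM in the control group and 532 to 597 FPKM at 12 h. By 24 h there were 243, 247 and 221 FPKM after 5 Gy and 242, 199 and 147 FPKM after 20 Gy, again with no overlap. The change was -1.49 ± 0.14 (adjusted p = 1.01e-05) and -1.79 ± 0.14 (adjusted p = 2.58e-06). The calls of Mt-nd1, Mt-nd3 and Mt-nd5 at 24 h held without any single library.

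Mt-nd6 is the only protein-coding gene on the minus strand (MT:13543-14061). A strand setting is not known, so reads from the plus strand at this position cannot be told apart from its own. It had 101, 60.6 and 112 FPKM in the control group and 49.8 to 132 FPKM at 12 h. Its 24 h values were 34.9, 43.6 and 31.6 FPKM after 5 Gy and 25.0, 41.5 and 9.71 FPKM after 20 Gy, below all other libraries. It passed the threshold only after 20 Gy, with a change of -1.97 ± 0.46 (adjusted p = 0.00726), against -1.26 ± 0.46 (adjusted p = 0.0631) after 5 Gy. The difference between the doses, -0.71 ± 0.46, did not pass (adjusted p = 0.62), and with only the groups compared in the fit the call was lost (adjusted p = 0.0646).

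The row of Mt-nd2 was called lower at 24 h after 20 Gy (-7.23 ± 1.88, adjusted p = 0.0132), but this value comes from 2 libraries in which it is listed at 0. The remaining library had 793 FPKM, close to the 708 to 790 FPKM at 24 h after 5 Gy. The control group had 1436, 1224 and 1515 FPKM and the 12 h groups 915 to 1077 FPKM. All libraries at 24 h after 5 Gy were thus below all of these, but the row was not called there. The fit has 1 error per row for all groups, so this error includes the libraries at 0. An exact 0 in a gene this abundant can be a failed estimate, and without either of these libraries the call was lost.

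In complex IV, cytochrome c oxidase, the 2 core subunits that could be followed were not called in any comparison. Mt-co1 was the most abundant mitochondrial row, with 6778, 6368 and 7553 FPKM in the control libraries, 6470 to 7488 FPKM at 12 h, and 6272 to 6539 FPKM at 24 h after 5 Gy. The values of 24 h after 20 Gy were 6910, 7615 and 5562 FPKM. The groups overlap, and the change against control at 24 h was -0.10 ± 0.10 after 5 Gy and -0.05 ± 0.10 after 20 Gy. Mt-co2 had 4666, 3906 and 5008 FPKM in the control group, 3637, 3544 and 3213 FPKM at 24 h after 5 Gy, and 4214, 4210 and 2349 FPKM at 24 h after 20 Gy. Its changes of -0.38 ± 0.18 and -0.38 ± 0.18 did not pass (adjusted p = 0.15 and 0.154).

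The levels were also set against Mt-co1 of the same library. This ratio does not depend on the scaling between libraries. It was chosen after the values were seen and is given without a test. Mt-nd1, Mt-nd3, Mt-nd5 and Mt-nd6 together reached 39.9%, 38.8% and 40.1% of Mt-co1 in the control libraries. At 12 h the ratio was 30.6%, 32.8% and 34.8% after 5 Gy and 31.0%, 29.2% and 29.4% after 20 Gy. It was down to 17.4%, 16.5% and 16.8% after 5 Gy and 16.5%, 13.4% and 13.2% after 20 Gy at 24 h. The control, 12 h and 24 h libraries form 3 ranges that do not touch, also when aligned bases are used (27.1% to 27.5%, 20.4% to 24.3% and 9.19% to 12.2%). Mt-co2 was 61.3% to 68.8% of Mt-co1 in the control group, 59.1% to 68.7% at 12 h and 42.2% to 61.0% at 24 h, so that the 24 h libraries were below all control libraries and overlapped with those of 12 h.

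**Figure D3:**
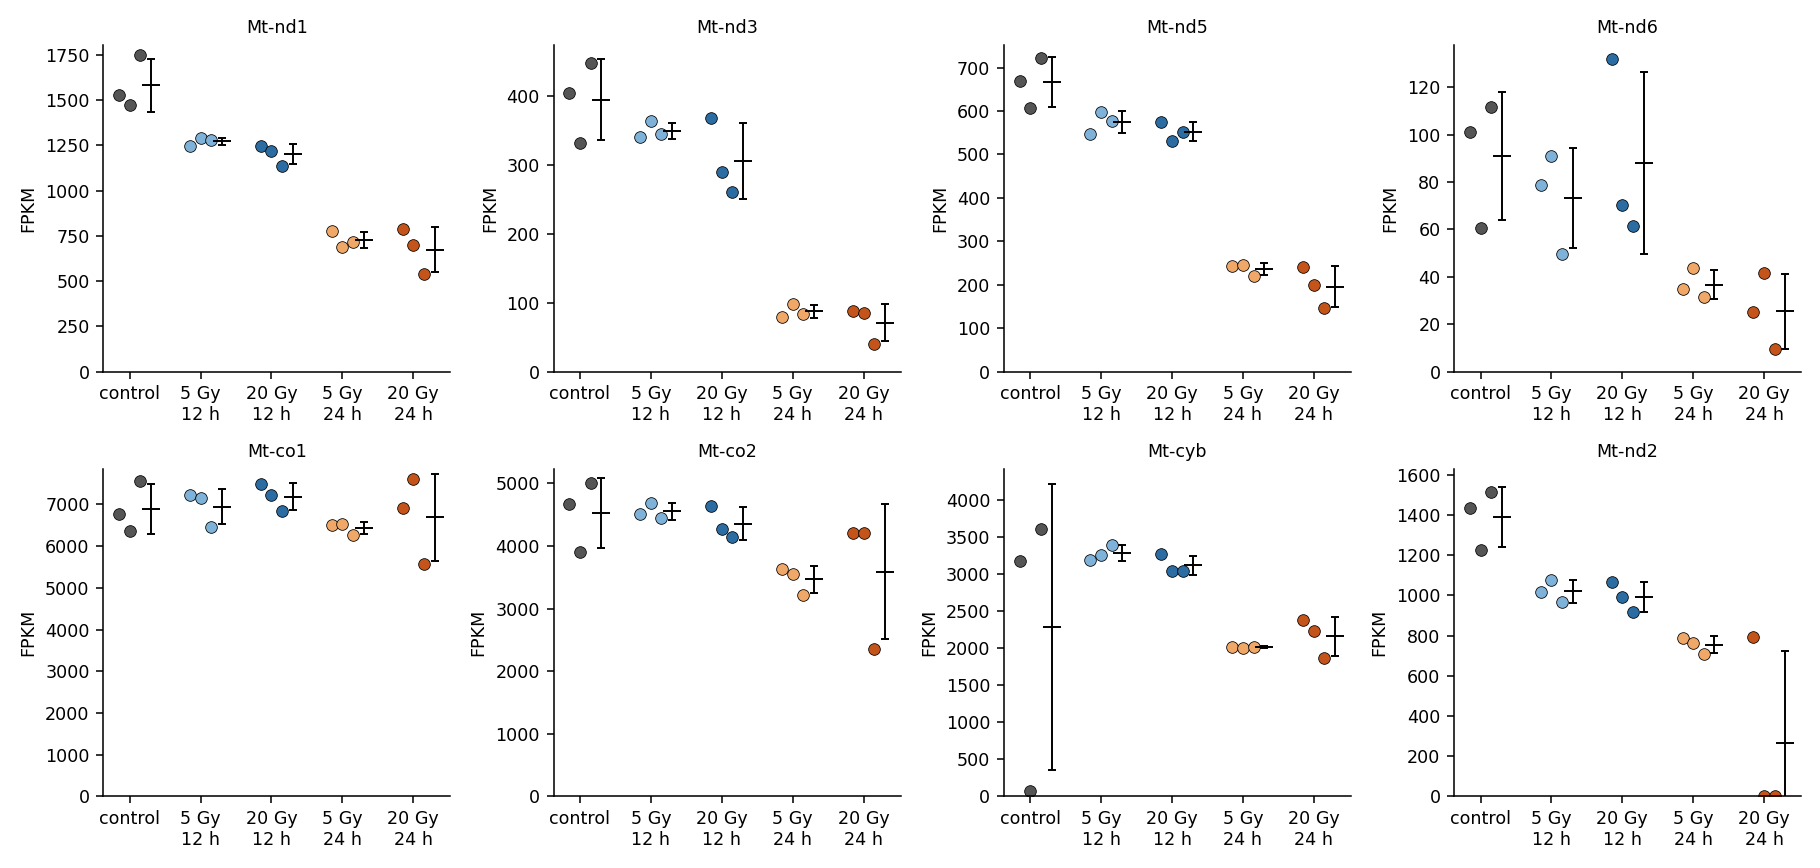
FPKM of 8 protein-coding rows by group, on linear axes that start at 0. Points are libraries and bars are the mean ± SD of 3. Mt-nd1, Mt-nd3 and Mt-nd5 are lower in all 6 libraries of 24 h, Mt-co1 stays between 5562 and 7615 FPKM, Mt-cyb drops to 71.6 FPKM in 1 control library, and Mt-nd2 is at 0 in 2 libraries.

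The other protein-coding rows overlap further rows, and how reads were divided between such rows was not tested. Mt-cyb, the mitochondrial subunit of complex III, had 3167 and 3602 FPKM in 2 control libraries but 71.6 FPKM in replicate 2. In that library the overlapping assembled row MSTRG.24592.1 (MT:9870-15278) had 1477 FPKM, against 438 and 470 in the other 2, and Mt-nd4 had 242 FPKM while it was below 0.1 FPKM in all 14 others. At 12 h Mt-cyb had 3031 to 3393 FPKM, and at 24 h it had 2017, 1994 and 2018 FPKM after 5 Gy and 2381, 2223 and 1862 FPKM after 20 Gy. With all libraries, the change against control at 24 h had a large error (1.10 ± 1.08 and 1.19 ± 1.08, not called). Without replicate 2 of the control group it was -0.75 after 5 Gy (adjusted p = 0.000169) and -0.66 after 20 Gy (adjusted p = 0.000416), and both were called lower.

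The rows of a locus were also added, which would lessen the effect of such a division, but single libraries still stood apart. The locus of Mt-nd4l, Mt-nd4, Mt-cyb and MSTRG.24592.1 took 0.524%, 0.487% and 0.586% of the aligned bases in the control libraries and 0.477% to 0.523% at 12 h. The 24 h libraries had 0.297%, 0.293% and 0.290% after 5 Gy and 0.340%, 0.325% and 0.237% after 20 Gy, below all other libraries. The locus of Mt-co1, Mt-atp8, Mt-atp6, Mt-co3 and the assembled row MSTRG.24583.1 took 1.18% to 1.42% in the control group, 1.21% to 1.52% at 12 h and 0.984% to 1.40% at 24 h, with overlap. The highest value of the second locus, 1.52%, was that of replicate 1 at 12 h after 5 Gy. In that library Mt-co3 had 2027 FPKM, while Mt-co1 and MSTRG.24583.1 were within the range of the other libraries. The lowest value of the first locus, 0.237%, was that of replicate 3 at 24 h after 20 Gy, in which MSTRG.24592.1 is listed at 0. These sums were made after the values were seen and have no test.

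Mt-atp8 and Mt-atp6, subunits of the ATP synthase, were at 0.0744 to 0.205 FPKM in all libraries and were not tested. Mt-co3 was at 0.125 to 0.215 FPKM in 14 libraries and at 2027 FPKM in replicate 1 at 12 h after 5 Gy. Mt-nd4l was below 0.14 FPKM in 14 libraries and at 188 FPKM in replicate 3 at 24 h after 20 Gy, in which MSTRG.24592.1 is listed at 0. The high values of Mt-co3 and Mt-nd4l stand in single libraries and their cause was not tested, so the level of these genes cannot be read from them. MSTRG.24592.1 was itself called lower at 24 h after 20 Gy (-4.54 ± 1.46, adjusted p = 0.037), a value that includes this 0 and that was not called without any 1 of the 3 control libraries (adjusted p = 0.0635 to 0.118), with a pseudocount of 0.1 or with only the groups compared in the fit.

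Of the 22 tRNA-size rows, 16 were tested, 10 on the plus and 6 on the minus strand. The strand is that of the annotated row. Without a known strand setting, reads from the opposite strand cannot be told apart in it. At 24 h, 10 were called lower after 5 Gy and 13 after 20 Gy (12.0% and 13.6% of all transcripts), and none was called higher. On the plus strand 8 of 10 were called lower at each dose, and on the minus strand 2 of 6 after 5 Gy and 5 of 6 after 20 Gy. The median change on the plus strand was -2.72 and -3.17, and on the minus strand -0.48 and -1.65. At 12 h, 7 rows were called lower after 5 Gy, 6 of them on the plus strand, and 1 after 20 Gy (2.24% and 1.77% of all transcripts). With a pseudocount of 0.1 none of these 12 h calls remained, and with only the groups compared in the fit 1 of the 7 remained after 5 Gy. These transfer RNAs carry amino acids to the mitochondrial ribosome.

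The 3 adjoining rows between Mt-nd4 and Mt-nd5 went from well measured to almost nothing. AY172581.23 (MT:11538-11605) had 28.1, 19.5 and 22.8 FPKM in the control libraries, 11.7, 15.03 and 15.2 at 12 h after 5 Gy and 17.2, 16.3 and 14.996 at 12 h after 20 Gy. What remained at 24 h was 0, 0 and 0.103 FPKM after 5 Gy and 0.133, 0 and 0.154 FPKM after 20 Gy. In aligned bases this was 8538 to 11908 in the control group and at most 68 in each library of 24 h, which is the length of the row. The change was -4.55 ± 0.16 (adjusted p = 7.83e-09) and -4.47 ± 0.16 (adjusted p = 7.39e-09), and these values depend on the pseudocount because the 24 h libraries are near 0. AY172581.17 and AY172581.11, which follow it, had 14.9 to 20.0 and 8.17 to 10.0 FPKM in the control group and no more than 0.0768 and 0.0664 FPKM at 24 h. AY172581.16, between Mt-nd3 and Mt-nd4l, fell from 12.4 to 22.3 FPKM in the control group to at most 0.212 FPKM at 24 h. All 4 rows were already between 4.20 and 17.2 FPKM at 12 h. The 12 h libraries lay below those of the control group in each of these rows, and the decrease was called in all 4 after 5 Gy and in AY172581.17 after 20 Gy (adjusted p = 0.0201). Without single libraries, the call of AY172581.17 after 5 Gy was kept, those of the other 3 rows were lost without 3 to 5 of the 6 libraries, and that after 20 Gy without 4 of 6.

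AY172581.1, between Mt-co2 and Mt-atp8, and AY172581.5, between Mt-co3 and Mt-nd3, decreased in the same way. AY172581.1 had 7.74 to 9.50 FPKM in the control group, 2.05 to 5.75 FPKM at 12 h and 0 to 0.548 FPKM at 24 h. AY172581.5 had 7.86 to 9.51, 4.01 to 6.64 and 0.346 to 0.945 FPKM in the same order. The plus-strand row AY172581.8 had 0.317 to 1.03 FPKM in the control group and at most 0.289 FPKM at 24 h, and its call at each dose was lost without 4 of the 6 libraries. AY172581.4 was not called, and AY172581.12 had 19.8 FPKM in 1 library at 24 h after 5 Gy and 0 and 0.0895 FPKM in the other 2. The 6 rows that were not tested had at most 2.19 FPKM in any library.

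One plus-strand row also separated the doses. AY172581.14 (MT:2665-2739) lies between the larger rRNA-size row, which increased, and Mt-nd1, which decreased. It had 28.7, 26.8 and 33.4 FPKM in the control libraries, 20.6, 20.8 and 24.3 at 12 h after 5 Gy, and 25.4, 24.7 and 22.4 at 12 h after 20 Gy. Its 24 h values were 7.02, 5.31 and 4.15 FPKM after 5 Gy and 1.00, 0.826 and 0.750 FPKM after 20 Gy. The last values rest on 562, 464 and 366 aligned bases in a row of 75 bases. The change against control was -2.26 ± 0.16 after 5 Gy (adjusted p = 1.5e-06) and -4.04 ± 0.16 after 20 Gy (adjusted p = 1.8e-08). The difference between the doses at 24 h was -1.78 ± 0.16 (adjusted p = 0.000176), but it was not called when the fit held only these 2 groups (adjusted p = 0.0997). Of the 56 rows, 0 were called higher and 2 lower after 20 Gy than after 5 Gy at 24 h, where 0.541% and 0.560% of all transcripts were called, and 0 were called with only these groups in the fit. Between the doses at 12 h limma called 0 mitochondrial rows (1 higher and 2 lower at an unadjusted p below 0.05), and 0.0143% and 0.0191% of all transcripts were called.

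On the minus strand, AY172581.20, next to Mt-nd6, had 55.5, 50.2 and 63.3 FPKM in the control group, 11.9 to 20.5 FPKM at 12 h and 0.196 to 3.84 FPKM at 24 h. Its change at 24 h was -4.43 ± 0.47 (adjusted p = 3.06e-05) and -4.40 ± 0.47 (adjusted p = 3.36e-05). AY172581.22, AY172581.18 and AY172581.10 form a cluster between Mt-nd2 and Mt-co1. They were called lower after 20 Gy (-1.38 ± 0.31, -1.38 ± 0.24 and -1.06 ± 0.20), that of AY172581.22 not with only the groups compared in the fit (adjusted p = 0.0718), and after 5 Gy their changes of -0.45 ± 0.31, -0.50 ± 0.24 and -0.38 ± 0.20 did not pass. AY172581.18, the highest of the 3, had 27.6, 19.7 and 29.0 FPKM in the control group, 17.0, 18.6 and 16.7 FPKM at 24 h after 5 Gy, and 9.72, 12.97 and 5.77 FPKM at 24 h after 20 Gy. The difference between the doses was -0.87 ± 0.24 for this row and did not pass (adjusted p = 0.135). AY172581.2, at the end of the molecule, had 12.2 to 15.8 FPKM in the control group and fell after both doses (-1.43 ± 0.21 and -2.17 ± 0.21). AY172581.21 had 5.36 to 21.1 FPKM in the control group and was not called.

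Summed over the strand, the plus-strand tRNA-size rows had 130, 105 and 120 FPKM in the control libraries, 66.2 to 85.4 FPKM at 12 h, 28.3, 6.97 and 5.81 FPKM at 24 h after 5 Gy, and 3.19, 3.17 and 1.58 FPKM at 24 h after 20 Gy. Of the 28.3 FPKM, 19.8 come from AY172581.12. The minus-strand rows had 137, 116 and 155 FPKM in the control libraries, 65.1 to 98.4 FPKM at 12 h, 53.1, 52.8 and 49.8 FPKM at 24 h after 5 Gy, and 28.9, 36.8 and 17.6 FPKM at 24 h after 20 Gy. The minus strand held 51.4% to 56.3% of tRNA-size FPKM in the control group, 46.4% to 58.1% at 12 h, and 65.2% to 92.1% at 24 h. The libraries of 24 h lay above all others, and this share was chosen after the values were seen and was not tested. It is a share of rows by their annotated strand, and the strand of the reads themselves is not known.

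**Figure D4:**
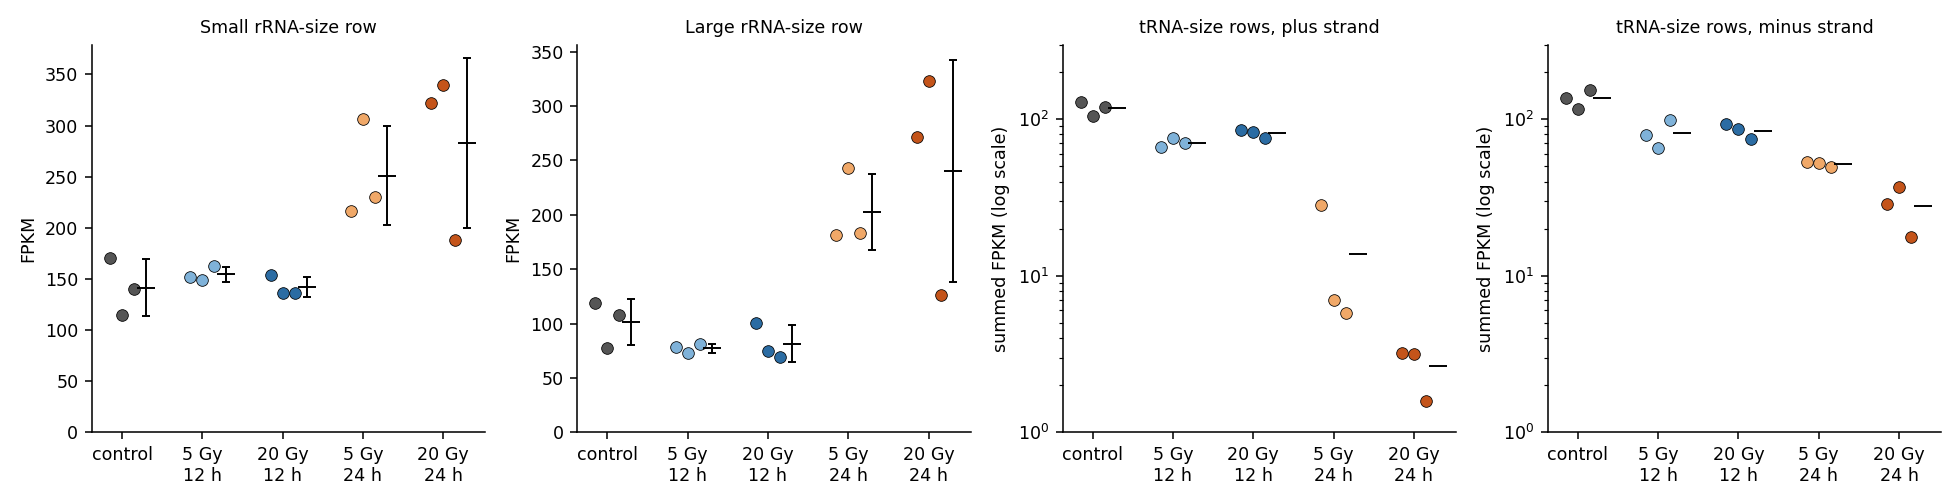
FPKM of the 2 rRNA-size rows (left, linear axes from 0, bars are the mean ± SD of 3) and summed FPKM of the tRNA-size rows by strand (right, log axes, dashes are the means of 3). Points are libraries. The rRNA-size rows are highest at 24 h, the plus-strand sum is 105 to 130 FPKM in control libraries and 1.58 to 28.3 FPKM at 24 h, and the minus-strand sum is 116 to 155 and 17.6 to 53.1 FPKM.

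Among the 32 assembled rows, 27 were tested, and 5 of the 32 were above 0 in all 15 libraries. Of the 27 tested rows, 1 was called lower at 24 h after 5 Gy and 3 after 20 Gy. These are smaller shares than the 12.0% and 13.6% of all transcripts called lower, and the 3 include MSTRG.24592.1 with its listed 0. MSTRG.24579.1 (MT:3761-4306, minus strand, 2 exons), which lies opposite the start of Mt-nd2, was measured in all 15 libraries. It had 14.9, 13.7 and 11.3 FPKM in the control group, 25.7, 32.1 and 21.7 at 12 h after 5 Gy, and 27.1, 23.2 and 23.3 at 12 h after 20 Gy. The 24 h values were 12.9, 9.91 and 13.6 FPKM after 5 Gy and 4.20, 2.59 and 3.75 FPKM after 20 Gy. It was the single mitochondrial row called higher at 12 h, by 0.93 ± 0.19 (adjusted p = 0.0145) after 5 Gy and 0.84 ± 0.19 (adjusted p = 0.0275) after 20 Gy. Of all transcripts tested, 2.08% and 1.92% were called higher, and 1 row of 56 is near these shares. The call after 5 Gy was lost without replicate 3 of the control group, without replicate 2 of the exposed group and with only the groups compared (adjusted p = 0.0589 to 0.0759), and that after 20 Gy without replicate 2 or 3 of the control group or any 1 of the exposed libraries (adjusted p = 0.0661 to 0.102). After 20 Gy at 24 h it was lower than control (-1.68 ± 0.19, adjusted p = 4.56e-05) and than after 5 Gy (-1.55 ± 0.19, adjusted p = 0.00145). A strand setting is not given in the sources used here, so reads from this row and from Mt-nd2 cannot be told apart, and the row also overlaps AY172581.21 on its own strand. MSTRG.24577.29, opposite Mt-nd4, fell from 1.95 to 4.88 FPKM in the control group to 0.312 to 1.19 FPKM at 24 h. MSTRG.24583.1, a plus-strand row that spans Mt-co1 to Mt-nd5, had 343 to 473 FPKM in the control group and 158 to 364 FPKM at 24 h and was not called.

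The nuclear genes that act on the mitochondrial genome were tested as sums of FPKM per gene over 17895 genes. After 5 Gy at 24 h, 20.5% of all genes were called higher than control and 20.8% lower, with a median log2 change of -0.05, and after 20 Gy 17.0% and 23.3%, with a median of -0.14. The lists were read against these shares and have no test of their own. Of 9 genes of mitochondrial transcription, 5 were called higher and 2 lower after 5 Gy, and 2 higher and 2 lower after 20 Gy. Polrmt, the mitochondrial RNA polymerase, had 6.67, 7.49 and 6.35 FPKM in the control group, 13.5, 12.0 and 12.6 FPKM at 24 h after 5 Gy and 10.0, 7.56 and 10.4 FPKM at 24 h after 20 Gy. It rose by 0.81 ± 0.13 after 5 Gy (adjusted p = 0.000181), and its change of 0.39 ± 0.13 after 20 Gy stayed under the fold threshold.

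Tfam, which packs mitochondrial DNA and starts its transcription, rose from 14.3 to 15.9 FPKM in the control group to 21.8 to 25.6 FPKM at 24 h after 5 Gy (0.61 ± 0.08, adjusted p = 3.28e-05) and had 19.6 to 21.8 FPKM after 20 Gy (0.47 ± 0.08, under the fold threshold). The elongation factor Tefm rose after both doses, by 1.08 ± 0.17 and 0.80 ± 0.17, and so did Mterf1, by 1.01 ± 0.13 and 0.65 ± 0.13. Tfb2m, which helps the polymerase to open the promoter, rose after 5 Gy (0.68 ± 0.13) and stayed under the fold threshold after 20 Gy (0.48 ± 0.13). Mterf4, which takes part in assembly of the mitochondrial ribosome, fell from 4.75 to 5.90 FPKM to 1.46 to 2.28 FPKM at 24 h, and Mterf2 fell as well. Of the regulators of mitochondrial biogenesis, 6 of 11 tested genes were called higher after 5 Gy, among them Myc (2.10 ± 0.26) and Gabpb1 (1.66 ± 0.12). After 20 Gy, 5 were higher and Pprc1 was lower (-0.85 ± 0.12). Nrf1 did not pass in either group, and Ppargc1a was at most 0.280 FPKM and was not tested.

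Of 30 tested genes of mitochondrial RNA processing, stability and decay, 6 were called higher and 5 lower after 5 Gy, and 4 higher and 6 lower after 20 Gy. Slirp and Lrpprc form a complex that protects mitochondrial messenger RNAs. Slirp fell from 3.73 to 4.96 FPKM in the control group to 1.73 to 2.12 FPKM at 24 h after 5 Gy (-0.86 ± 0.12, adjusted p = 6.17e-05) and 1.65 to 2.58 FPKM after 20 Gy (-0.72 ± 0.12, adjusted p = 0.000283). Lrpprc did not pass, with 15.9 to 16.5 FPKM in the control group and 14.3 to 16.8 FPKM at 24 h. Ptcd1 and Ptcd2, of the pentatricopeptide repeat family of RNA-binding proteins, rose after 20 Gy by 0.91 ± 0.09 and 0.80 ± 0.13, and Fastk and the rRNA methyltransferase Nsun4 fell (-1.15 ± 0.13 and -0.95 ± 0.10).

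Of 15 tested genes of replication and maintenance, 2 were called higher and 3 lower after 5 Gy, and 1 higher and 3 lower after 20 Gy. Polg, the catalytic subunit of the mitochondrial DNA polymerase, had 20.4 to 23.9 FPKM in the control group, 43.2 to 55.5 FPKM at 12 h and 9.97 to 13.8 FPKM at 24 h. Its change at 24 h was -0.77 ± 0.09 after 5 Gy and -0.99 ± 0.09 after 20 Gy. The single-stranded DNA binding protein Ssbp1 fell (-0.79 ± 0.13 and -0.68 ± 0.13), and the pyrimidine nucleotide carrier Slc25a33 rose (1.01 ± 0.15 and 0.84 ± 0.15).

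The nuclear subunits that join the mitochondrial products were read against the 20.8% and 23.3% of all genes called lower. Of 34 tested nuclear subunits of complex I, 13 were called lower after 5 Gy (38.2%) and 7 after 20 Gy (20.6%), with 0 higher (limma, 0 and 1 higher at an unadjusted p below 0.05). The largest decreases after 20 Gy were those of Ndufa11 (149 FPKM on average in the control group and 76.0 FPKM after 20 Gy) and Ndufa12. In complex II 2 and 0 of 4 were called lower, in complex III 4 and 2 of 9, in complex IV 6 and 1 of 12, and in complex V 8 and 4 of 16. After 20 Gy these shares of calls, 0% to 25.0%, were near or below that of all genes. The median log2 changes after 20 Gy were lower than that of all genes, at -0.35, -0.44, -0.42, -0.36 and -0.43 in complexes I to V against -0.14. In complexes II to V limma called 0 genes higher, and 0 were higher at an unadjusted p below 0.05. At this unadjusted limit 24 of 34, 3 of 4, 5 of 9, 9 of 12 and 12 of 16 were lower after 20 Gy in complexes I to V. The share of all genes at that limit was not computed, so these counts cannot be read as an excess over all genes. The Rieske protein Uqcrfs1 of complex III fell after both doses (-1.48 ± 0.08 and -1.06 ± 0.08), and so did Uqcrb (-0.77 ± 0.12 and -0.65 ± 0.12). The complex IV isoform Cox4i2 fell (-1.62 ± 0.26 and -1.36 ± 0.26), and in complex V the inhibitor Atp5if1 (-1.47 ± 0.23 and -1.13 ± 0.23) and the subunit Atp5mf (-1.18 ± 0.09 and -0.90 ± 0.09) fell.

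Of 74 tested mitochondrial ribosomal proteins, 2 were called higher and 28 lower after 5 Gy, and 1 higher and 24 lower after 20 Gy, or 37.8% and 32.4% called lower, while both rRNA-size rows were called higher. Mrpl41 (-1.79 ± 0.13 and -1.85 ± 0.13) and Mrpl32 (-1.72 ± 0.12 and -1.73 ± 0.12) fell, and Mrps10 rose (0.85 ± 0.13 and 0.68 ± 0.13). Of 14 genes in a list of translation factors and related genes, 3 were higher after 5 Gy and 4 higher and 3 lower after 20 Gy. Mtfmt, which formylates the initiator methionyl-tRNA, rose by 1.65 ± 0.11 and 1.35 ± 0.11, and Taco1, an activator of Mt-co1 translation, rose by 0.79 ± 0.16 and 0.69 ± 0.16. Cox18 and Mtif2 fell after 20 Gy (-0.64 ± 0.12 and -0.67 ± 0.16). A further list held genes of the sensing of mitochondrial or other cytosolic nucleic acids and of its signalling, 4 of them tested. Ifih1 and Mavs rose and Tmem173 (the gene of STING) fell after both doses, Tmem173 from 5.37 to 5.72 FPKM to 0.787 to 1.35 FPKM. Of 12 tested genes of mitophagy and fission, limma called 0 at 24 h, with median changes of -0.21 and -0.28. At an unadjusted p below 0.05 (limma), 2 were higher and 3 lower after 5 Gy and 3 higher and 7 lower after 20 Gy. Here too the share of all genes at this limit was not computed, so no excess can be read from these counts.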

How the data were processed

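Poly-A RNA of cultured rat BMECs was sequenced in 15 libraries, 3 in each of 5 groups. The authors trimmed reads with Trimmomatic, mapped them to Rnor_6.0 with HISAT2 (version 2.0.13 in the submitters' processing notes), assembled transcripts with StringTie 1.3.5 and deposited 1 table of FPKM values, with 85322 rows. FPKM divides by row length and library size, was used without rescaling, and does not resolve how reads are split between overlapping rows or nuclear copies. A gene's FPKM is the sum over its rows.

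Rows on chromosome MT were taken as members, and their shares of the summed FPKM and of aligned bases (FPKM multiplied by length) were computed per library. Depth was recovered from single-exon rows of up to 200 bases. In each library 66.5% to 73.7% of their low values were whole multiples of 1 step, within 0.05, against a median of at most 9.91% over other steps, and 1 step was read as 1 aligned base. Rows with a mean FPKM of at least 0.5 were tested on log2(FPKM + 1), in which changes of low rows are understated, with limma 3.58.1 in R 4.3.3 (1 mean per group, 10 residual degrees of freedom, variance prior with trend, two-sided, Benjamini-Hochberg over all rows). Shares were tested with two-sided exact permutations in scipy 1.17.1. The fit was tested on simulated data.

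The members, the gene lists and the rule for named genes were chosen with earlier results of these data known. The rule names all protein-coding and rRNA-size rows, tRNA-size and assembled rows with a mean FPKM of at least 0.5 (grouped where alike), 8 core nuclear factors, and per list the 2 largest rises and falls called at 24 h after 20 Gy. Assembled rows with unsteady values are given by counts. Alternatives were another pseudocount (0.1), filters, scalings, fits of the groups compared, a variance prior without trend, the replicate block, a fold of 2, and leaving out each library. A strand setting of the counting is not given in the sources used here. Sequences of the mitochondrial genome and counts were not used here.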

Additional observations from a re-analysis of the deposited data

Results flagged for a closer look

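One mitochondrial row changed differently over time at the 2 doses. The decrease of AY172581.14, the tRNA-size row between the larger rRNA-size row and Mt-nd1, from 12 h to 24 h was larger after 20 Gy than after 5 Gy by 1.92 ± 0.22 on the log2 scale (difference of -1.92, limma interaction, adjusted p = 0.00321 over all transcripts tested). All 3 libraries at 24 h after 20 Gy were below all 3 after 5 Gy. The next row in order, the assembled MSTRG.24579.1, had a difference of -1.45 ± 0.26 and did not pass (adjusted p = 0.0519). The rule for these flags did not look for single outlying samples in groups of 3 libraries. Libraries that stood apart in single rows are named in the results.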

How the results depend on the processing

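Counts of mitochondrial rows called at 24 h, against control or 12 h, stayed within 1.5 times of the reported values in all fits. Without 1 library, the 24 h count was 13 to 16 with 5 Gy and 21 to 22 with 20 Gy against control, 14 to 16 and 19 to 22 from 12 h to 24 h after 5 Gy and 20 Gy, and 2 to 3 between the doses at 24 h. Fewer rows were called at 12 h. After 5 Gy the count of 8 became 1 with a pseudocount of 0.1, 1 with only the groups compared, 2 with a fold of 2, and 3 to 5 without 1 library. After 20 Gy the count of 2 became 1 with a pseudocount of 0.1, 0 with a fold of 2, and 0 to 2 without 1 library. Between the doses at 24 h it was 0 with only the groups compared, and the cause was not tested. The numbers of replicates did not pair the samples (correlations of deviations from -0.042 to 0.062). With the replicate block, 6 (5 Gy) and 2 (20 Gy) rows were called at 12 h, 16 and 22 at 24 h, 18 and 22 from 12 h to 24 h, and 0 and 2 between the doses.

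The difference in mitochondrial share between 24 h and 12 h kept its direction and its p below 0.05 in all alternatives, with -1.002 to -0.736 percentage points without 1 library. For 24 h against control, the p passed 0.05 for aligned bases (-0.671 percentage points) and for the sum of FPKM as deposited (-4947 FPKM), with -1.12 to -0.629 without 1 library. Small differences changed sign. For 5 Gy at 12 h it was -0.0478 in aligned bases and -0.0848 to 0.405 without 1 library. For 20 Gy at 12 h it was 0.00952 without rRNA-size and tRNA-size rows, 0.146 over annotated rows, 0.000403 over the 6 protein-coding rows that stayed within 10-fold in each group (an alternative chosen after seeing the data), and -0.319 to 0.171 without 1 library. Between the doses at 24 h it was 0.0113 in aligned bases, 42.7 FPKM for the sum, and -0.391 to 0.274 without 1 library. For 12 h against control with pooled doses it was -0.0868 in aligned bases, -210 FPKM for the sum, and -0.202 to 0.288 without 1 library. Among single rows, Mt-cyb turned from higher to lower without replicate 2 of the control group (without 1 library, -0.75 to 2.07 after 5 Gy and -0.66 to 2.16 after 20 Gy at 24 h), and AY172581.12 without replicate 1 at 24 h after 5 Gy (-1.18 to 1.005 against control and -1.31 to 0.88 against 12 h).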
